A study of Mus musculus with 6 samples.

Results

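The transcripts examined here were those of *Becn1* and of the genes for its class III phosphatidylinositol 3-kinase complex, 9 genes chosen by name out of the 16579 genes listed for bone marrow megakaryocytes (MKs). They comprised the kinase core (*Becn1*, *Pik3c3* and *Pik3r4*), the subunits of the autophagy complex (*Atg14* and *Nrbf2*), the subunit of the endosomal complex (*Uvrag*), the inhibitor of the latter (*Rubcn*), a scaffold that brings beclin 1 to the endoplasmic reticulum (*Ambra1*) and an endoplasmic reticulum protein that works at sites of autophagosome formation (*Vmp1*). All 9 were listed and all 9 passed the expression filter. MKs had been sorted by flow cytometry out of marrow of mice aged 3 months, with 3 libraries from Becn1f/f mice and 3 libraries labelled Becn1f/f;Pf4-iCre. Both genotypes carry the floxed *Becn1* allele, so the control is not a wild-type allele, and they differ in a Cre recombinase driven by regulatory sequence of *Pf4* (platelet factor 4), which is meant to delete *Becn1* in the megakaryocytic lineage. No Cre-only control was analysed here, and the sources used here give neither the sex of these mice nor whether a library was 1 mouse or a pool. If the 3 libraries of a genotype do not come from separate mice, the p-values measure only the spread between these samples.

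The class III kinase, VPS34 (encoded by *Pik3c3*), phosphorylates phosphatidylinositol to phosphatidylinositol 3-phosphate (PI3P), a lipid that recruits proteins with PI3P-binding domains to membranes. VPS34 and its regulatory kinase VPS15 (*Pik3r4*) form with beclin 1 a core that carries either ATG14, which directs it to nascent autophagosomes, or UVRAG, which directs it to endosomes. ATG14 and UVRAG bind beclin 1 in place of each other, and rubicon (*Rubcn*) binds the UVRAG-containing complex and lowers its activity. Platelets and MKs carry out autophagy and sort endosomal cargo into granules. These are statements on proteins from general knowledge, whereas the values that follow are of RNA.

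*Becn1* was the only one of the 9 transcripts with a lower mean in the libraries labelled Becn1f/f;Pf4-iCre, and the other 8 had a slightly higher mean. None of the 9 differences passed a test. *Becn1* was at 90.3% of its Becn1f/f level, with a 95% interval from 74.9% to 108.9%, and *Pik3c3* was at 117% (95.3% to 144.5%). Differentially expressed genes (DEGs) were those with a change of at least 1.5-fold, up or down, with P under 0.05 before adjustment. Of the 9 genes, 0 were DEGs by edgeR's quasi-likelihood test, 0 had an unadjusted P under 0.05 (their smallest was 0.12), and 0 were DEGs under any of the alternative analyses, DESeq2 included. Among all 12256 genes tested, 2.3% were DEGs and 6.31% had an unadjusted P under 0.05, so with 9 genes a count of 0 is close to that background. The median log2 fold change of the 9 genes was 0.07, against -0.02 over all genes tested, of which 45.5% had a positive value. The intervals of the 9 log2 fold changes together reached from -0.42 to 0.55, so a change of 1.5-fold or more lay outside each of them, while smaller changes of either sign remained within them.

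The levels of the complex were first compared between genes within the Becn1f/f libraries, in FPKM. FPKM are fragment counts that the authors scaled for transcript length and library size. Markers of other marrow cells were abundant in these libraries (values below), so the levels are those of the sorted cells as a whole. *Becn1* stood at 84.5, 72.2 and 81.9 FPKM in the 3 Becn1f/f libraries, with a mean of 79.5 ± 6.50 (SD, n = 3). Its mean over all 6 libraries was at the 89.9th percentile of the genes tested. *Uvrag* was second with 45.6 ± 3.41 FPKM (SD, n = 3), below *Becn1* and above every other member without overlap between libraries. *Vmp1* (23.4 ± 3.24), *Pik3c3* (19.1 ± 2.27), *Nrbf2* (17.3 ± 0.858) and *Ambra1* (16.7 ± 1.80) followed (FPKM, SD, n = 3), and neighbours in this order overlapped. *Rubcn* (11.2 ± 3.10), *Pik3r4* (6.61 ± 1.70) and *Atg14* (6.48 ± 0.607) were lowest (FPKM, SD, n = 3). *Rubcn* did not overlap with *Ambra1*, but *Rubcn* overlapped with *Pik3r4*, and *Pik3r4* with *Atg14*. The same neighbours overlapped, and the same did not, when all 6 libraries were used. The mean FPKM of *Becn1* was thus 4.17 times that of *Pik3c3*, 12.0 times that of *Pik3r4* and 12.3 times that of *Atg14*. The transcript for the endosomal subunit, *Uvrag*, stood far above that for the autophagy subunit, *Atg14*, with an *Atg14*/*Uvrag* ratio of 0.144, 0.145 and 0.137 in the 3 Becn1f/f libraries.

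**Figure D1:**
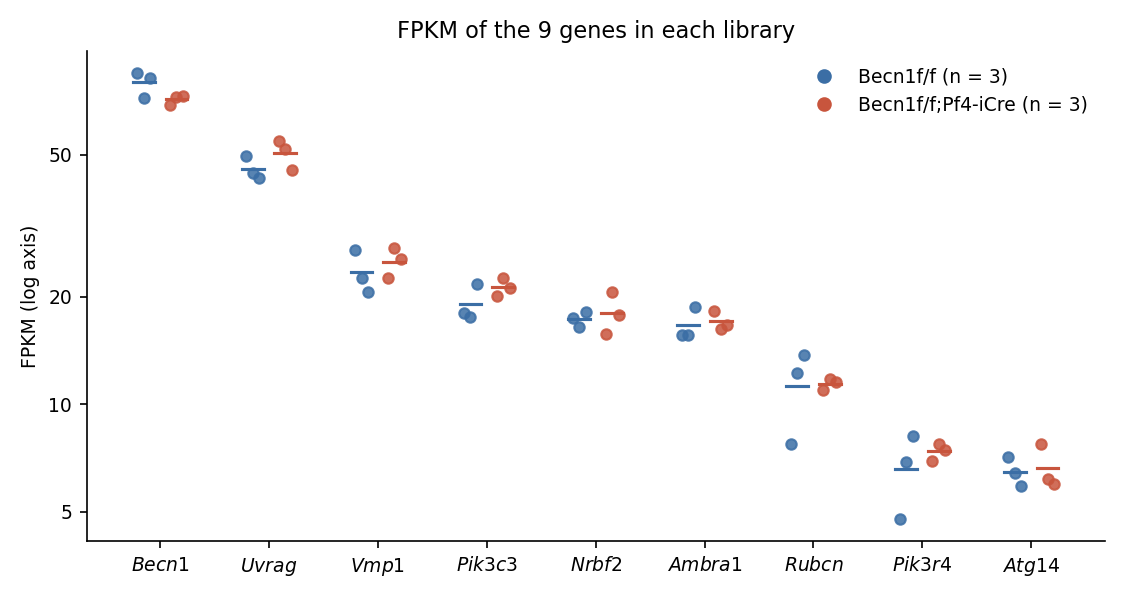
FPKM of the 9 genes (log axis), 1 point per library, Becn1f/f on the left of each pair and Becn1f/f;Pf4-iCre on the right (n = 3 each), with bars at the arithmetic means. *Becn1* (68.7 to 84.5) and *Uvrag* (43.0 to 54.5) stand above the other genes, and the genotypes overlap for every gene.

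*Becn1*, the targeted gene, lies on the minus strand at chr11:101285952-101302286 (positions here and throughout are those of GENCODE M21 on GRCm38, while the submitters' processing notes name GRCm39). In CPM (counts scaled by TMM to library size only), it stood at 127.5, 108.8 and 118.7 in Becn1f/f replicates 1, 2 and 3. In the libraries labelled Becn1f/f;Pf4-iCre it stood at 106.4, 104.4 and 109.8. The 3 latter values were close together at the bottom of the range, but the highest of them exceeded the lowest Becn1f/f value, so the genotypes overlapped. The log2 fold change was -0.15 (SE 0.12, edgeR adjusted p = 0.94), and an exact two-sided permutation test gave p = 0.2, where 3 libraries against 3 cannot give less than 0.1. The difference was -0.08 without Becn1f/f replicate 1, the highest library. By whole-gene counts, the targeted gene therefore did not separate the genotypes in these libraries. By RT-qPCR, the paper reports reduced *Becn1* mRNA in CD41-positive marrow cells (MKs and platelets) and no change in CD41-negative cells. It also reports less beclin 1 protein in MKs and none detected in platelets. How those measures relate to the whole-gene counts of these libraries was not tested. The counts are sums over the whole gene: reads of exons removed by Cre and of exons that stay in the transcript were not separated here, and the sources used here do not state which exons are floxed.

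Cre is meant to act in the megakaryocytic lineage only, so markers of cell types in these sorts were examined. Of 17 MK and platelet markers, 11 were under 10 CPM in all 6 libraries and 1 was under 1 CPM. Their summed level ranged from 296 to 404 CPM in Becn1f/f and from 308 to 389 CPM in the libraries labelled Becn1f/f;Pf4-iCre. *Itga2b*, which encodes CD41, was at 148 to 187 CPM and 142 to 176 CPM, and *Pf4* itself was at only 3.76 to 6.73 CPM and 2.08 to 3.06 CPM (log2 fold change -1.01, SE 0.29, adjusted p = 0.42 by edgeR). *Pf4* thus did not overlap between the genotypes and was a DEG by the thresholds above, with an unadjusted P of 0.0045. Among the 15 tested MK and platelet markers, it was the only 1 with an unadjusted P under 0.05 by edgeR. Of these 15 markers, 6 were higher and 9 lower (median -0.03 in log2), and the summed level of the list overlapped between the genotypes. That sum came largely from *Itga2b* and the few other markers that reached 10 CPM in a library. Markers of other marrow cells were abundant, with neutrophil markers summing to 12317 to 17447 CPM in Becn1f/f and 9565 to 12869 CPM in the other genotype (14 of 15 genes lower, 7 with an unadjusted P under 0.05, median log2 fold change -0.44), and markers of mast cells, basophils and eosinophils to 4471 to 8539 CPM and 3521 to 5296 CPM. Summed erythroid markers were lower in the libraries labelled Becn1f/f;Pf4-iCre without overlap (455 to 580 against 600 to 871 CPM, 14 of 14 genes lower, 10 with an unadjusted P under 0.05), and summed macrophage markers were higher without overlap (865 to 1068 against 806 to 852 CPM, 11 of 12 tested genes higher, 4 with an unadjusted P under 0.05). Among all genes tested, 6.31% had an unadjusted P under 0.05 and 45.5% had a positive log2 fold change. The part of the marker differences in the values of *Becn1* and its partners was not tested. In bulk RNA of this kind, fewer cells of a type and less RNA per cell cannot be told apart. Summed markers of B cells (166 to 287 against 170 to 216 CPM), of T and NK cells (61.0 to 74.2 against 49.3 to 64.6 CPM) and of endothelial and stromal cells (123 to 143 against 115 to 136 CPM) overlapped, with Becn1f/f given first, and no marker in the table was at 0 in all libraries. Of tested markers, 1 of 10 for B cells and 1 of 7 for T and NK cells had an unadjusted P under 0.05. So had 1 of 7 for endothelial and stromal cells and 0 of 10 for mast cells, basophils and eosinophils. Across the 12025 genes with a known GC content, which are not independent replicates, log2 fold changes fell with GC content (Spearman -0.35), and the exon sequence of *Becn1* has 45.0% GC against a median of 50.1%. After the GC and length trend of each library was taken out, the *Becn1* log2 fold change was -0.20 (SE 0.089, edgeR adjusted p = 0.63), with an unadjusted P of 0.052.

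*Pik3c3*, the catalytic subunit, was at 101.3, 76.1 and 95.5 CPM in Becn1f/f replicates 1, 2 and 3, and at 106.2, 105.9 and 108.3 CPM in the libraries labelled Becn1f/f;Pf4-iCre. It was the only member whose CPM did not overlap between genotypes, where 10.6% of all genes tested did not overlap and 5.42% were higher without overlap. In FPKM the genotypes did overlap, with 17.6 to 21.7 against 20.1 to 22.6, and no member was without overlap (10.2% of all genes tested). The log2 fold change of *Pik3c3* was 0.23 (SE 0.14, adjusted p = 0.88 by edgeR; exact two-sided permutation p = 0.1). Without Becn1f/f replicate 2, the lowest library, it was 0.12. Without Becn1f/f replicate 1 it was 0.32 (edgeR adjusted p = 0.46), with an unadjusted P of 0.036.

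*Pik3r4* (chr9:105642978-105687657, plus strand) encodes the regulatory kinase that anchors VPS34 to membranes. It was at 22.5, 31.1 and 36.0 CPM in Becn1f/f and at 32.6, 35.1 and 34.0 CPM in the libraries labelled Becn1f/f;Pf4-iCre. Becn1f/f replicate 1 was far below the other 5 libraries, which lay within 31.1 to 36.0 CPM. The log2 fold change was 0.18 (SE 0.17, adjusted p = 0.95 by edgeR). It was 0.34 without Becn1f/f replicate 3, the highest library, and 0.02 without Becn1f/f replicate 1. The core thus held 1 transcript with a lower mean, *Becn1*, and a pair with a higher mean, of which *Pik3r4* rested on Becn1f/f replicate 1.

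**Figure D2:**
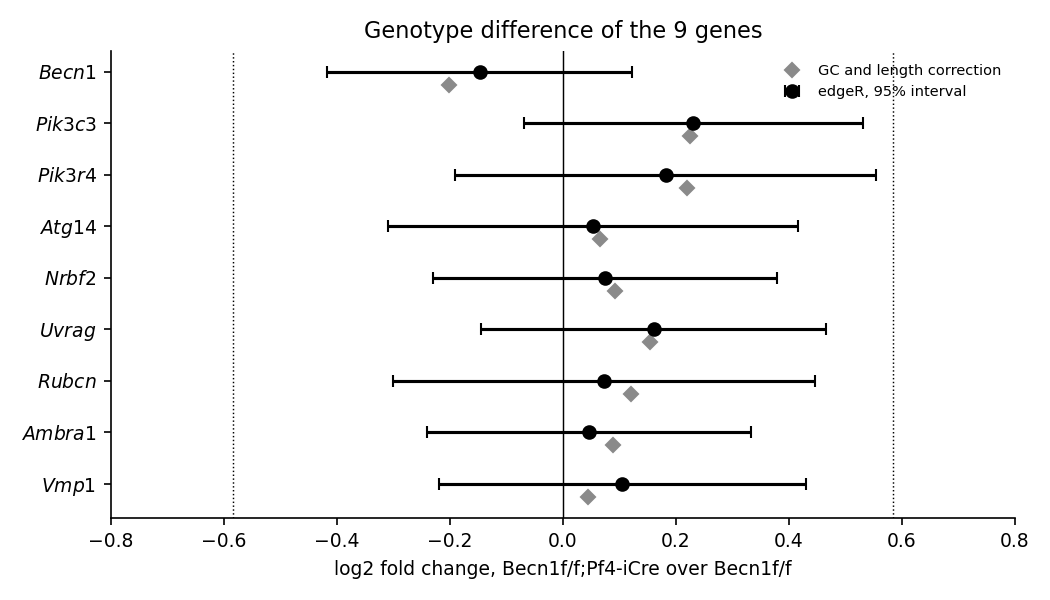
Log2 fold changes of the 9 genes, libraries labelled Becn1f/f;Pf4-iCre over Becn1f/f (n = 3 each), from edgeR with 95% intervals (black circles) and after the GC and length correction (grey diamonds, no interval drawn). Dotted lines mark a 1.5-fold change. All 9 intervals include 0 and stay inside the dotted lines, and only *Becn1* (-0.15) lies left of 0.

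*Atg14* (chr14:47540893-47570649, minus strand), which sends the complex to autophagosome precursors, was at 22.9, 19.9 and 17.9 CPM in Becn1f/f and at 25.1, 19.2 and 18.6 CPM in the libraries labelled Becn1f/f;Pf4-iCre. The genotypes overlapped almost fully, with a log2 fold change of 0.05 (SE 0.17, 95% interval -0.31 to 0.42). *Nrbf2* (chr10:67266689-67285305, minus strand) encodes a further subunit of the ATG14 complex. It was at 26.1, 23.7 and 25.9 CPM in Becn1f/f and at 24.2, 29.4 and 26.1 CPM in the other genotype, with a log2 fold change of 0.07 (SE 0.14, 95% interval -0.23 to 0.38). *Nrbf2* varied least of the 9 genes between Becn1f/f libraries relative to its mean, with an SD of 1.34 on a mean of 25.2 CPM.

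*Uvrag* (chr7:98885021-99141141, minus strand), the endosomal counterpart of *Atg14*, was at 159.0, 136.6 and 129.9 CPM in Becn1f/f and at 175.5, 159.7 and 140.2 CPM in the libraries labelled Becn1f/f;Pf4-iCre. The ranges overlapped, with a log2 fold change of 0.16 (SE 0.14, adjusted p = 0.94 by edgeR; exact two-sided permutation p = 0.2). It was 0.08 without Becn1f/f;Pf4-iCre replicate 1, the highest library, and 0.26 without Becn1f/f replicate 1. *Rubcn* (chr16:32821703-32877766, minus strand), the inhibitor of the UVRAG complex, was at 39.1, 58.5 and 63.4 CPM in Becn1f/f and at 55.9, 57.2 and 56.5 CPM in the other genotype. Its 3 values in the libraries labelled Becn1f/f;Pf4-iCre lay within the Becn1f/f range, of which replicate 1 set the bottom as it did for *Pik3r4*. The log2 fold change of *Rubcn* was 0.07 (SE 0.17), and it changed sign to -0.10 without Becn1f/f replicate 1.

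*Ambra1* (chr2:91730134-91918849, plus strand) was at 76.2, 73.1 and 86.6 CPM in Becn1f/f and at 89.2, 76.1 and 78.5 CPM in the libraries labelled Becn1f/f;Pf4-iCre. Its log2 fold change was 0.05 (SE 0.13, 95% interval -0.24 to 0.33). *Vmp1* (chr11:86583865-86683836, minus strand), on the same chromosome as *Becn1*, was at 63.1, 51.0 and 45.6 CPM in Becn1f/f and at 53.0, 61.3 and 57.3 CPM in the other genotype. Its log2 fold change was 0.11 (SE 0.15, 95% interval -0.22 to 0.43). It was 0.0043 without Becn1f/f replicate 3 and 0.25 without Becn1f/f replicate 1, so its size depended on single Becn1f/f libraries. Across the 9 genes, adjusted p-values of edgeR's quasi-likelihood test lay between 0.88 and 0.99.

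The balance between members was then compared within libraries, where the scaling of a library cancels. The *Becn1*/*Pik3c3* ratio of FPKM was 4.71, 4.10 and 3.78 in Becn1f/f and 3.42, 3.21 and 3.46 in the libraries labelled Becn1f/f;Pf4-iCre. All 3 latter values were below all 3 Becn1f/f values, with a log2 difference of -0.31 (exact two-sided permutation p = 0.1, the smallest this design allows; 0.15 after Benjamini-Hochberg adjustment over 3 ratios). The ratio of CPM gave a difference of -0.39, again without overlap. The *Becn1*/*Pik3r4* ratio of FPKM was 17.7, 10.5 and 10.1 in Becn1f/f and 9.92, 9.35 and 9.79 in the other genotype. These did not overlap either (log2 difference -0.34, exact two-sided permutation p = 0.1, adjusted 0.15), but the 17.7 came from the Becn1f/f library with low *Pik3r4*, and without it the difference was -0.08. The *Atg14*/*Uvrag* ratio, which compares the subunits that direct the complex to autophagosomes or endosomes, was 0.142, 0.120 and 0.133 in the libraries labelled Becn1f/f;Pf4-iCre. It overlapped with the Becn1f/f values given above (log2 difference -0.11, exact two-sided permutation p = 0.2).

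**Figure D3:**
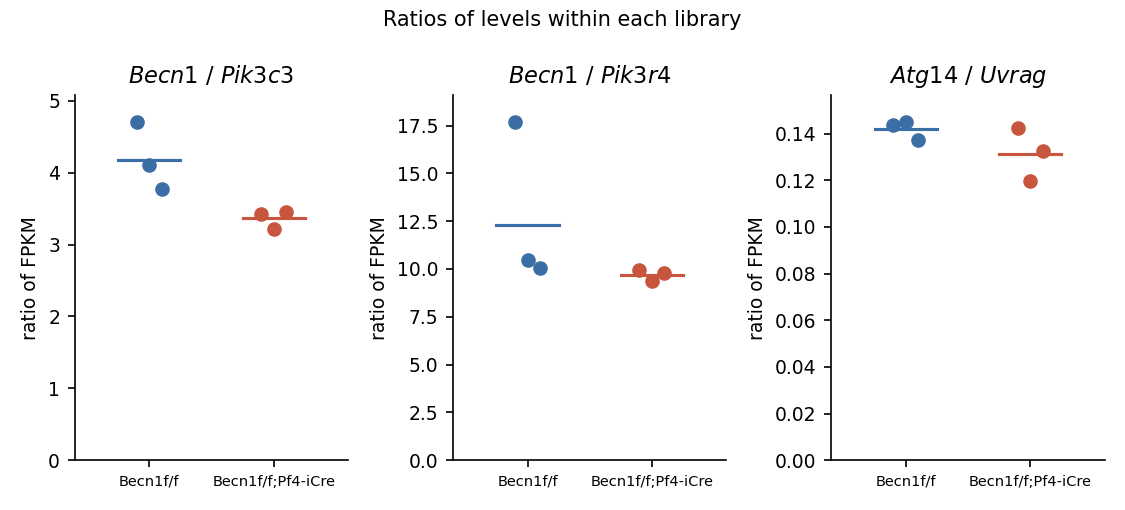
Ratios of FPKM of 2 genes within each library, for *Becn1*/*Pik3c3*, *Becn1*/*Pik3r4* and *Atg14*/*Uvrag*, 1 point per library (n = 3 per genotype) with bars at the geometric means and axes that start at 0. The first 2 ratios do not overlap between genotypes, the second includes 1 high Becn1f/f library (17.7), and the third overlaps.

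The ratio of *Becn1* to each of the other 8 members was examined after these values had been seen. It was lower in every library labelled Becn1f/f;Pf4-iCre than in every Becn1f/f library for 5 of 8 partners, *Pik3c3*, *Pik3r4*, *Nrbf2*, *Uvrag* and *Vmp1*, in FPKM as well as in CPM. Some gaps in the log2 ratio of FPKM were small, given as lowest Becn1f/f value against highest value of the other genotype. The values were 0.703 against 0.694 for *Uvrag*, 2.13 against 2.12 for *Nrbf2* and 3.33 against 3.31 for *Pik3r4*. For *Vmp1* they were 1.65 against 1.61, and for *Pik3c3* 1.92 against 1.79. The log2 differences of the 8 ratios ranged from -0.34 for *Pik3r4* to -0.18 for *Atg14*. Set against all other tested genes in place of the 8 partners, the *Becn1* ratio was lower without overlap for 13.6% of genes in FPKM and for 13.9% in CPM. The 8 ratios share the same *Becn1* values, so the 5 are not independent of each other, and no test was made of this count.

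Deposited counts of *Becn1* and *Pik3c3* were not whole numbers in all 6 libraries, as for 7.31% of all genes, whereas those of the other 7 members were whole in all 6. *Becn1* overlaps *Cntd1* (chr11:101279012-101296317), a cyclin-domain gene on the opposite strand. The counts of *Becn1* and *Cntd1* added up to whole numbers in every library (within 0.011), 2089, 1932 and 2129 in Becn1f/f and 1796, 1767 and 1894 in the libraries labelled Becn1f/f;Pf4-iCre, and no other of 1211 genes tried as a partner did so. *Cntd1* took 20.8 to 54.6 of these counts. The sum, which is nearly all *Becn1*, was at 90.2% of its Becn1f/f level and overlapped between the genotypes. Whether the counting used strand is not given in the sources used here. No such partner was found for *Pik3c3*. The transcript length implied by its counts and FPKM also varied most among the members, from 4403 to 5456 bases, 1.24 times, a wider range than in 99.2% of 6963 well-covered genes. Its values were 5456, 4403 and 4549 bases in Becn1f/f and 5151, 4725 and 5139 bases in the other genotype, which overlapped (exact two-sided permutation p = 0.6), and the order of the libraries for *Pik3c3* differed between FPKM and CPM. For *Becn1* the implied length was 1449 to 1532 bases, with a highest value 1.06 times the lowest, a wider range than in 83.4% of the well-covered genes. The genotypes did not differ beyond their spread in it (exact two-sided permutation p = 0.7).

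The neighbours of *Becn1* on chromosome 11 were examined because a value at one gene can be read against the values around it. Below it lie *Vps25* (a subunit of the endosomal sorting complex ESCRT-II), *Coa3* (an assembly factor of cytochrome c oxidase) and *Cntd1*, and above it *Psme3* (a proteasome activator), *Aoc2* (an amine oxidase) and *Aarsd1* (an alanyl-tRNA editing protein). All 6 neighbours had a lower mean in the libraries labelled Becn1f/f;Pf4-iCre, as *Becn1* did, and 0 of the 6 had an unadjusted P under 0.05 by edgeR (the smallest was 0.065, for *Aarsd1*). *Psme3*, the neighbour at a CPM most like that of *Becn1*, was at 163.6, 170.2 and 169.8 CPM in Becn1f/f and at 145.4, 141.5 and 158.6 CPM in the other genotype, without overlap. Its log2 fold change of -0.18 (SE 0.12, adjusted p = 0.90 by edgeR) was of the same size as that of *Becn1*. *Vps25* did not overlap either (44.4 to 51.3 against 36.1 to 44.3 CPM, log2 fold change -0.23, SE 0.14). In CPM 10.6% of all genes tested did not overlap, and in FPKM both *Psme3* and *Vps25* overlapped between genotypes. The other 4 neighbours overlapped, with log2 fold changes from -0.34 (*Aarsd1*) to -0.18 (*Aoc2*). Among the 31 other tested genes within 500 kb of *Becn1* 21 had a lower mean and 4 an unadjusted P under 0.05 by edgeR, where 6677 and 773 of all 12256 tested genes did, and their median log2 fold change was -0.16. These 31 genes had a median GC content of 54.4% against 50.1% over all genes, and after the GC and length correction their median was -0.08, with 18 lower and 5 at an unadjusted P under 0.05 (6629 and 987 of all genes). *Becn1* and *Cntd1*, with 45.0% and 44.5% GC, had larger differences under that correction (-0.20 and -0.28). Those of the other 5 neighbours, with 49.8% to 55.7% GC, were smaller: *Vps25* (-0.16), *Coa3* (-0.12), *Psme3* (-0.16), *Aoc2* (-0.11) and *Aarsd1* (-0.25).

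**Figure D4:**
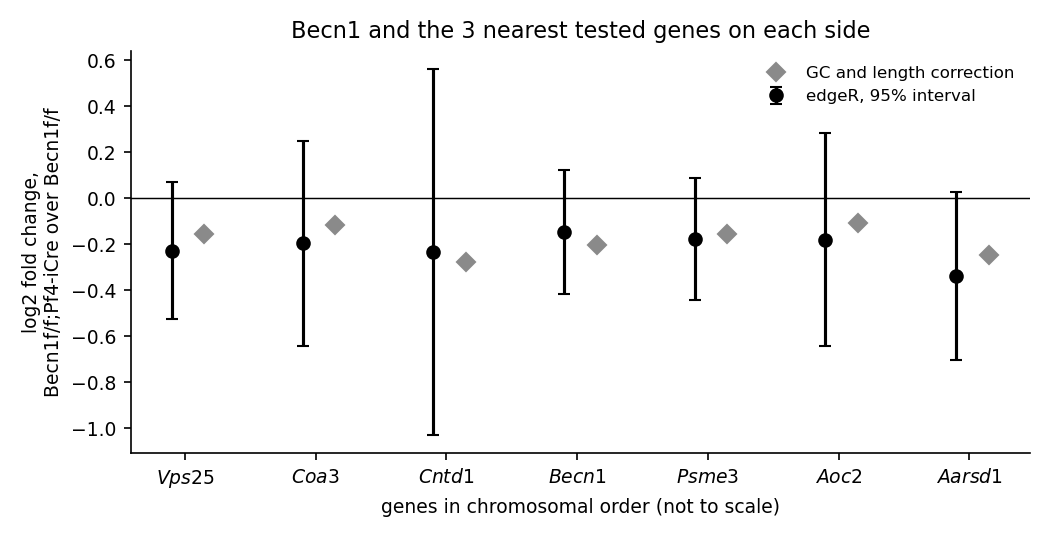
Log2 fold changes of *Becn1* and the 3 nearest tested genes on each side, in chromosomal order and not to scale, from edgeR with 95% intervals (black circles, n = 3 per genotype) and after the GC and length correction (grey diamonds, no interval drawn). All 7 genes lie below 0, from -0.34 for *Aarsd1* to -0.15 for *Becn1*, and all intervals include 0.

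The genes whose log2 CPM moved most like that of *Becn1* over the 6 libraries were *Susd1* (Pearson r = 0.996), *Sec16b* (0.994), *Prss34* (0.991), *Vti1a* (0.990) and LOC115489972 (0.986). The 6 libraries are all the points there are, they include both genotypes and differ in GC trend and cell makeup, and 134 genes (1.09% of those tested) reached an r of 0.9, so these values are a description. *Prss34*, a basophil protease also in the list of mast cell, basophil and eosinophil markers, had a mean of 917 CPM in Becn1f/f and 764 CPM in the libraries labelled Becn1f/f;Pf4-iCre. *Vti1a*, a SNARE protein of the Golgi and endosomes, had means of 38.5 and 34.3 CPM. The transcripts of the complex did not move with *Becn1* over these libraries: r was -0.70 for *Pik3r4*, -0.65 for *Rubcn*, -0.21 for *Uvrag*, and between -0.06 and 0.07 for *Pik3c3*, *Atg14*, *Nrbf2*, *Ambra1* and *Vmp1*. Becn1f/f replicate 1 was the highest library for *Becn1* and the lowest for *Pik3r4* and *Rubcn*. Among all tested genes, their r stood at percentiles 6.51 (*Pik3r4*) and 8.68 (*Rubcn*).

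The pathway around the complex was followed in 6 lists of 79 genes, of which 76 were tested. By edgeR 0 of the 76 were DEGs, 6 had an unadjusted P under 0.05, and all 6 of these were higher in the libraries labelled Becn1f/f;Pf4-iCre, that is 7.89% where 3.92% of all tested genes were higher and 2.39% lower at that P. None of the 6 had an adjusted p under 0.05, as had 0.0408% of all genes. The median log2 fold change of the 76 genes was 0.04, with 47 higher and 29 lower.

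Of the 6 genes, 4 belong to the list of PI3P effectors, the proteins that read the lipid made by VPS34 (4 of 20 tested, 12 of 20 with a higher mean, median log2 fold change 0.03). *Wdfy3*, a large PI3P-binding scaffold of selective autophagy, was at 94.4, 87.0 and 96.7 CPM in Becn1f/f and at 124.7, 122.9 and 110.9 CPM in the libraries labelled Becn1f/f;Pf4-iCre. The genotypes did not overlap, with a log2 fold change of 0.37 (SE 0.12, edgeR adjusted p = 0.54). *Zfyve9*, an endosomal FYVE-domain protein that presents SMADs to the TGF-beta receptor, was at 18.4, 21.2 and 18.3 CPM and at 25.1, 31.6 and 25.6 CPM, again without overlap (log2 fold change 0.51, SE 0.15, edgeR adjusted p = 0.45). *Zfyve16*, a related endosomal FYVE-domain protein, was at 18.6 to 20.7 CPM against 21.0 to 27.3 CPM (log2 fold change 0.35, SE 0.15, adjusted p = 0.76 by edgeR). *Sgk3*, a kinase that binds PI3P through a PX domain, was at 111.6 to 131.6 CPM against 132.6 to 186.7 CPM (log2 fold change 0.36, SE 0.15, adjusted p = 0.74 by edgeR). In FPKM, *Zfyve16* and *Sgk3* overlapped between genotypes, and *Wdfy3* and *Zfyve9* did not. The exons of *Zfyve16* and *Sgk3* are poor in GC (40.6% and 38.9%), and after the GC and length correction their unadjusted P by edgeR was 0.10 and 0.075. That of *Wdfy3* was 0.0039 and that of *Zfyve9* 0.011. The adjusted p-values of that fit were 0.70 for *Zfyve16*, 0.66 for *Sgk3*, 0.33 for *Wdfy3* and 0.45 for *Zfyve9*. In it, 987 of all 12256 tested genes had an unadjusted P under 0.05, against 773 without the correction.

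In the list of PI3P turnover genes, 11 of 13 tested genes had a higher mean, with a median log2 fold change of 0.05. *Mtm1*, the PI3P phosphatase myotubularin, was the 1 with an unadjusted P under 0.05. It was at 36.9, 28.6 and 26.5 CPM in Becn1f/f and at 32.8, 46.1 and 41.6 CPM in the other genotype, which overlapped (log2 fold change 0.39, SE 0.17, adjusted p = 0.78 by edgeR). Among the genes of the class I and class II kinases, 7 of 11 tested had a higher mean, with a median of 0.18. *Pik3ca*, the alpha catalytic subunit of class I, was at 64.0, 72.8 and 79.8 CPM in Becn1f/f and at 80.4, 99.2 and 89.6 CPM in the libraries labelled Becn1f/f;Pf4-iCre, without overlap (log2 fold change 0.31, SE 0.14, adjusted p = 0.78 by edgeR). In FPKM *Pik3ca* overlapped between genotypes. It too is poor in GC (41.2%), and its unadjusted P by edgeR was 0.33 after the GC and length correction (adjusted p = 0.86). That of *Mtm1* was 0.049 (adjusted p = 0.61).

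The 3 remaining lists held no gene with an unadjusted P under 0.05 by edgeR. Proteins that bind, modify or compete for beclin 1, such as BCL2 family members and deubiquitinases, had 10 of 19 tested genes higher (median log2 fold change 0.06, range -0.49 to 0.54). The ULK1 complex, the kinase upstream of VPS34 in autophagy, had 4 of 5 higher (median 0.13, range -0.08 to 0.27). Partners of VMP1 and other lipid movers of the autophagosome had 3 of 8 higher (median -0.04, range -0.17 to 0.26). After the GC and length correction the median log2 fold change was -0.01 for the proteins around beclin 1, a change of sign, 0.06 for PI3P effectors, 0.02 for PI3P turnover, 0.10 for the class I and class II kinases, 0.16 for the ULK1 complex and -0.05 for the partners of VMP1, and 0.02 over the 76 genes together.

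**Figure D5:**
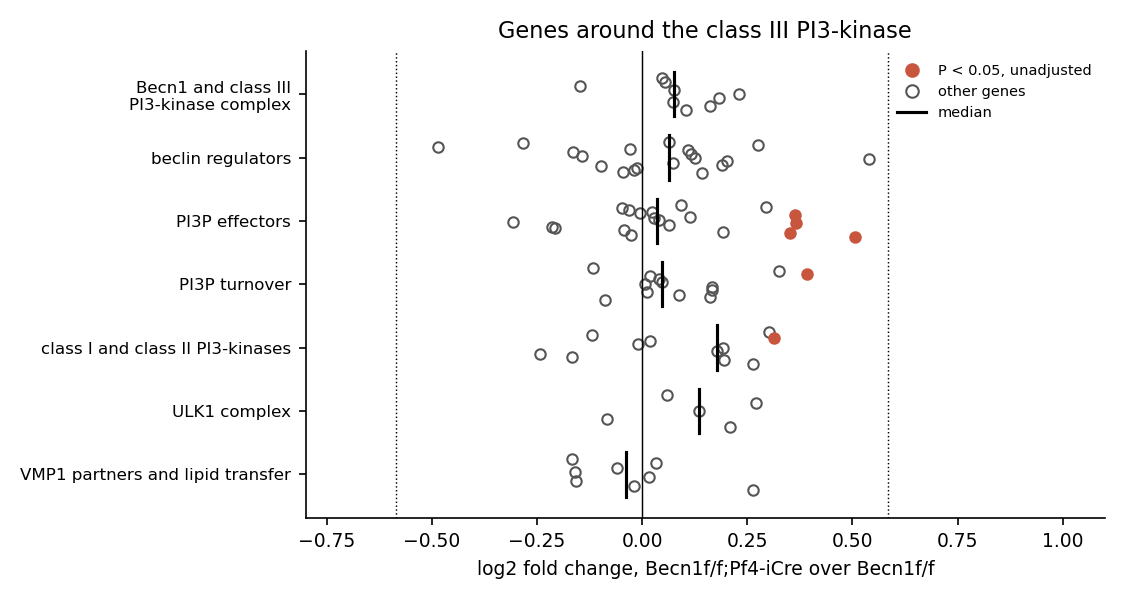
Log2 fold changes (libraries labelled Becn1f/f;Pf4-iCre over Becn1f/f, n = 3 each) of the 9 genes and of the tested genes of the 6 pathway lists, 1 point per gene, with vertical bars at the medians and dotted lines at a 1.5-fold change. Filled points have an unadjusted P under 0.05; 4 of the 6 are PI3P effectors, all 6 are above 0, and no point lies outside the dotted lines.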

How the data were processed

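RNA of cells sorted as MKs was sequenced from 3 Becn1f/f and 3 Becn1f/f;Pf4-iCre samples, grouped by sample title. The authors deposited for each gene an estimated count (not normalized) and an FPKM value (scaled by the authors for length and library size). The submitters' processing notes name HISAT, Bowtie2 and GRCm39 (mm39), and the counting tool is not given in the sources used here. Counts were rounded, and totals were 16467560 to 17156728 per library. Intervals of fold changes cover the spread between libraries. The table holds 16 further per-sample columns that were not used, 4 of them from 1 library that matches no sample here, and 8 columns of group means, also not used.

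Genes were filtered with filterByExpr (12256 kept), TMM-scaled and compared by the quasi-likelihood test of edgeR 4.0.16 (R 4.3.3), with Benjamini-Hochberg adjustment over all tested genes. DEGs changed at least 1.5-fold with unadjusted P under 0.05. Single values were compared by exact permutation tests. Alternatives were DESeq2 1.42.0, DESeq2 size factors, upper-quartile scaling, other count filters, limma-voom and limma 3.58.1 on log2(FPKM + 1) or log2(FPKM + 0.1), a replicate block, per-library GC and length trends (loess), and leaving out each library. The edgeR step was tested on simulated data. Positions and GC contents came from GENCODE M21 (GRCm38). The 9 genes and the lists were chosen with earlier results of these data known. The text names the 9 genes, list genes with an unadjusted P under 0.05, the 5 genes most correlated with *Becn1*, its 3 nearest tested genes on each side, *Itga2b* and *Pf4*. *Usp13* and *Mtmr8* were not in the table used, and *Pik3c2g* was filtered.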

Additional observations from a re-analysis of the deposited data

How the results depend on the processing

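The *Becn1* log2 fold change kept its sign and stayed on the same side of the threshold under all 18 alternatives, from -0.20 to -0.08, with adjusted p-values from 0.48 to 1.00. The count of DEGs among the 9 genes was 0 throughout. When 1 library was left out, *Atg14* ranged from -0.094 to 0.16, *Nrbf2* from -0.0029 to 0.14, *Rubcn* from -0.10 to 0.21 and *Ambra1* from -0.023 to 0.12, each changing sign, none past the threshold. The count of DEGs in the pathway lists was 0 to 1 on leaving out 1 library (*Dapk2*, log2 fold change -0.73, without Becn1f/f replicate 2, and *Rubcnl*, 0.87, without Becn1f/f replicate 3). It was 1 with limma-voom, with the replicate block and with the block joined to the GC and length correction, each time *Rubcnl*, at 0.61, 0.61 and 0.60 against 0.54 in edgeR. *Dapk2* and *Rubcnl* were named after their values were seen, and the cause of their calls was not tested.

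The deviations of samples of equal replicate number correlated at 0.07, -0.28 and 0.20. The labels do not say that a number marks a shared litter, batch or day, and not every correlation was over 0.1, so the numbers were not taken to pair the samples. With the replicate block *Becn1* was at -0.14 (edgeR adjusted p = 1.00), and with the block and the GC correction at -0.20 (edgeR adjusted p = 0.48), with an unadjusted P of 0.044. *Pik3c3* was at 0.23 with the block and the GC correction (edgeR adjusted p = 0.46), with an unadjusted P of 0.038. For the ratios, sign flips within replicate numbers gave an exact p of 0.25 for all 3, the smallest that 3 pairs allow. With 3 libraries per genotype, differences smaller than the intervals given in the report could not be detected.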
